A study of Mus musculus with 28 samples.

Results

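The genes described here are those that serve protein folding in the endoplasmic reticulum (ER), the disposal of misfolded ER proteins, and the stress program of the transcription factor ATF4, as measured in mouse regulatory T cells (Tregs). They were chosen by symbol from a list of 35. Of these, 29 were among the 13103 genes of the deposited table and all 29 passed the filter on low values. The other 6, Calr, Dnajb9, Sdf2l1, Manf, Ern1 and Sesn2, were not analysed here. Tregs are CD4+ T cells that hold immune responses in check and are defined by the transcription factor Foxp3. All cells came from Foxp3-GFP mice, in which green fluorescent protein (GFP) marks Foxp3-expressing cells, implanted in the skin with B16, a mouse melanoma cell line, 7 to 10 days earlier. Cells stained for CD45, CD3, CD4 and OX40 were sorted from digested tumors and spleens. GFP-positive cells high for OX40, a TNF-receptor-type molecule that costimulates T cells, are called OX40plus, and those low for it OX40minus. This gave 4 groups: tumor OX40plus and tumor OX40minus with 4 mice each, and spleen OX40plus and spleen OX40minus with 3 mice each. Every group therefore came from tumor-bearing animals, and no tumor-free group was analysed here. The ages and sexes of the mice were not used.

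Proteins that enter the secretory pathway fold in the ER with the help of chaperones and of enzymes that form disulfide bonds. When unfolded proteins accumulate there, the sensors IRE1, PERK and ATF6 in the ER membrane start the unfolded protein response: IRE1 splices the mRNA of the factor XBP1, ATF6 is cut to release a transcription factor, and PERK phosphorylates the initiation factor eIF2alpha, which lowers translation in general but raises translation of ATF4. ATF4 is also induced by amino acid shortage, and it switches on enzymes of serine, glycine and asparagine synthesis as well as stress regulators such as CHOP, encoded by Ddit3. In lymphocytes the same folding genes are known to rise with activation and secretion, without ER damage.

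RNA was sequenced from 28 libraries, 2 for each mouse and gate. Paired libraries differed by little more than sampling noise (median chi-square per gene 0.495 to 0.578, where sampling alone gives 0.455, against 1.43 to 12.8 between mice of a group), so each pair was averaged and counted as 1 sample, 14 in all. Levels are counts scaled to a common library total (CPM), from 22.4 M to 29.7 M estimated counts per sample, and 3 counts correspond to 0.104 to 0.13 CPM. Foxp3 averaged 32.5 to 64.5 CPM and Cd4 453.5 to 723.1 CPM over the 4 groups. Tnfrsf4, which encodes OX40, averaged 252.8 CPM in spleen OX40minus, 703.9 in spleen OX40plus, 1950 in tumor OX40minus and 3357 in tumor OX40plus Tregs, so RNA followed the gates within each tissue. Genes of other cells were present. The B cell gene Ms4a1 averaged 94.2 and 90.9 CPM in the spleen OX40minus and OX40plus samples but 0.577 and 0.220 CPM in the tumor OX40minus and OX40plus samples. The sum over 10 macrophage genes was lower in OX40plus than in OX40minus samples of both tissues. Differences were tested with limma's linear model on log2 CPM over all 14 samples, with Benjamini-Hochberg adjustment over 12512 genes tested, and a gene is called where the adjusted p is under 0.05. In bulk samples, fewer cells of a type and less RNA per cell cannot be told apart.

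In tumors, most of the folding and enzyme genes were higher in OX40plus than in OX40minus Tregs while none of the ATF4-linked regulators was. Of the 29 members, 15 were called higher and 2 lower in tumor OX40plus Tregs. Over all genes tested, 38.5% were called in this comparison, 18.6% higher and 20% lower. The median log2 fold change was 0.28 over the 29 members and -0.07 over all genes tested. In spleens, 3 members were called higher and 1 lower in OX40plus Tregs, where 7.98% of all genes tested were called (4.39% higher and 3.6% lower), and the members' median was 0.07 beside 0.01 for all genes. The 15 members higher in tumors comprised 5 of 7 ER chaperones, 4 of 4 protein disulfide isomerases, 0 of 2 sensors and their factors, 1 of 6 genes of ER-associated degradation, 0 of 5 ATF4-linked regulators and 5 of 5 enzymes of amino acid and one-carbon metabolism. The 3 members higher in spleens were all among those enzymes. With library sizes alone as the scaling, 7 members were higher in spleens, the additions being the chaperones Hspa5 and Creld2, the isomerase Pdia6 and the enzyme Shmt2 (limma adjusted p = 0.01101, 0.04764, 0.03369 and 0.02059).

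**Figure D1:**
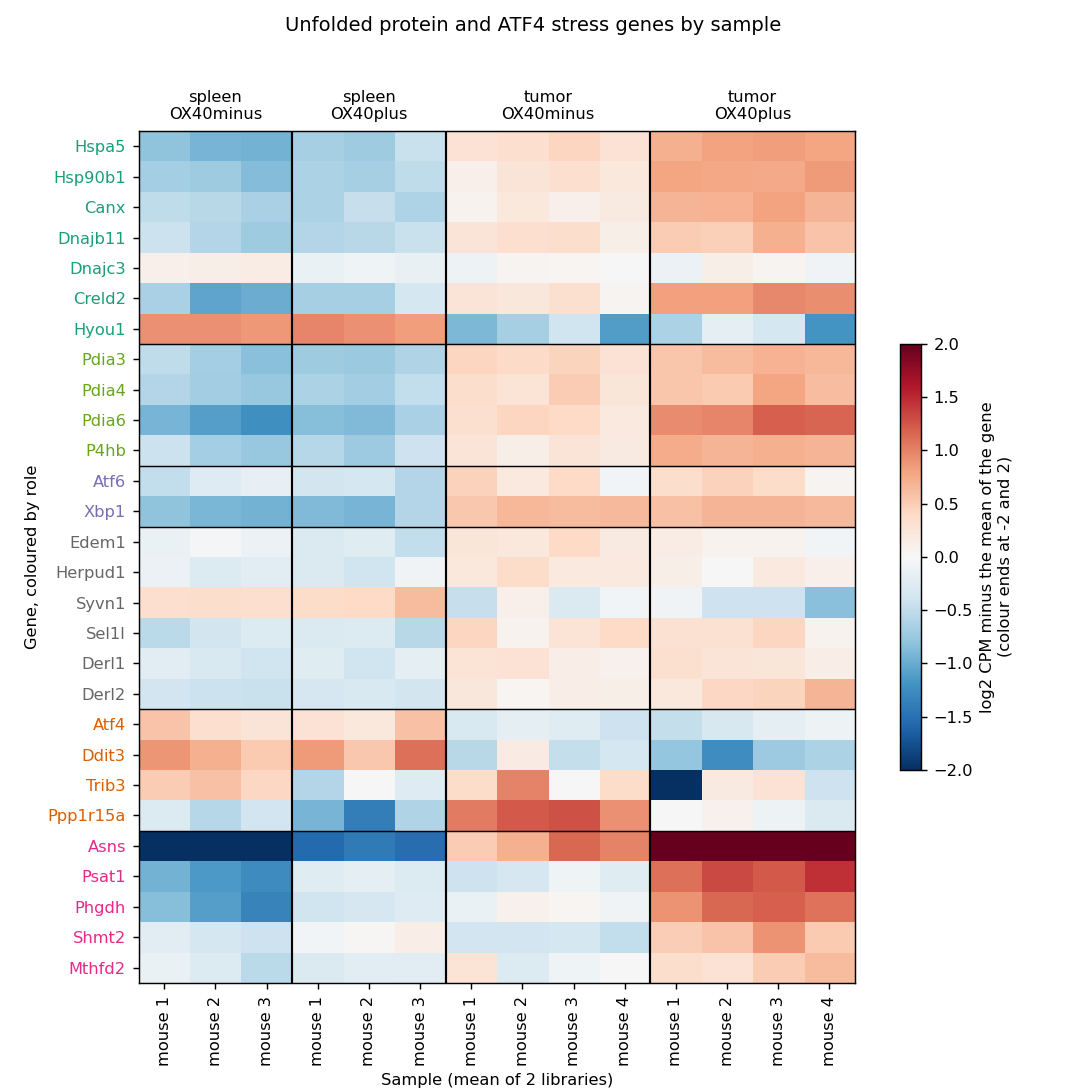
Log2 CPM of 28 members (rows, grouped and coloured by role) in the 14 samples (columns, by group and mouse), each as the difference from the gene's mean over all samples. Chac1 is not drawn because it was near or at 0. Chaperone and disulfide isomerase rows are lowest in spleen and highest in tumor OX40plus samples, with Dnajc3 and Hyou1 as exceptions, while Atf4, Ddit3 and Syvn1 are higher in spleen samples.

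Among the chaperones, Hspa5 encodes BiP, the ER member of the HSP70 family and the usual readout of the unfolded protein response, and lies at chr2:34771970-34777547 on the plus strand (GENCODE vM21, GRCm38). It was at 433.8, 398.2 and 396.5 CPM in spleen OX40minus samples and at 481.4, 463.7 and 560.3 CPM in spleen OX40plus samples. In tumors it was at 932.8, 964.2, 1019 and 929.8 CPM in OX40minus samples and at 1241, 1335, 1362 and 1309 CPM in OX40plus samples. The 4 groups did not overlap and lay in that order. The difference between gates was called in tumors, 1.36-fold (log2 fold change 0.45, SE 0.08, limma adjusted p = 2.42e-04), and not in spleens, 1.22-fold (0.29, SE 0.09, limma adjusted p = 0.0557). The spleen difference was called under 3 of 22 alternatives, which were library sizes alone, no spleen OX40plus mouse 2 (0.04904) and no tumor OX40plus mouse 4 (0.03862).

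Hsp90b1 encodes GRP94, the HSP90 of the ER, which folds integrins and Toll-like receptors. In tumors it was at 556.3, 621.4, 650.9 and 602 CPM in OX40minus samples and at 894.1, 890.3, 871.7 and 933.8 CPM in OX40plus samples, against 322.7, 315.1 and 283.1 CPM in spleen OX40minus and 333, 328.5 and 363.2 CPM in spleen OX40plus samples. All tumor OX40plus samples lay above all tumor OX40minus samples (1.48-fold, log2 fold change 0.56, SE 0.07, limma adjusted p = 2.08e-05), while the spleen gates, also without overlap, differed by 0.15 (SE 0.08, limma adjusted p = 0.395).

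Canx encodes calnexin, a lectin of the ER membrane that holds newly made glycoproteins until they fold. In tumors it was at 324.9, 361.7, 334.6 and 352.4 CPM in OX40minus and at 498, 502.6, 546.1 and 497.8 CPM in OX40plus samples, a 1.49-fold difference (log2 fold change 0.57, SE 0.07, limma adjusted p = 1.14e-05). In spleens the values of 218.1, 211.5 and 198.5 CPM in OX40minus and 201.7, 224.9 and 203.2 CPM in OX40plus samples overlapped, with group means of 209 and 210 CPM. Of the chaperones, calnexin had the smallest fitted difference between spleen gates and the second largest between tumor gates.

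Creld2 encodes an ER-resident protein known as a target of the unfolded protein response. It was at 73.18, 71.14, 75.96 and 63.24 CPM in tumor OX40minus samples and at 107.5, 107.8, 118.4 and 116.4 CPM in tumor OX40plus samples, without overlap (1.59-fold, log2 fold change 0.67, SE 0.11, limma adjusted p = 1.53e-04). Spleen values were 38.69, 29.26 and 30.66 CPM in OX40minus and 38.52, 38.34 and 47.58 CPM in OX40plus samples, which overlapped and were not called (log2 fold change 0.34, SE 0.12, limma adjusted p = 0.128). Dnajb11, an HSP40 cochaperone of BiP, was called in tumors at a smaller size, 205 ± 14.9 CPM against 253 ± 19.5 CPM (SD, n = 4 each; 0.30 on the log2 scale, SE 0.08, limma adjusted p = 0.00975).

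The remaining chaperone members did not follow BiP. Dnajc3, a cochaperone known as p58IPK, had the same mean of 132 CPM in both tumor gates and ranged from 118.4 to 146.6 CPM over all 14 samples. In spleens it was at 140.7, 143 and 146.6 CPM in OX40minus and at 120.7, 123.9 and 118.4 CPM in OX40plus samples. These were lower in OX40plus without overlap but not called (log2 fold change -0.25, SE 0.08, limma adjusted p = 0.0953). Hyou1, the ER exchange factor and chaperone ORP150, was at 109.3 to 121.3 CPM in the 6 spleen samples and at 26.7 to 54.37 CPM in the 8 tumor samples. Its tumor gates overlapped (log2 fold change 0.18, SE 0.18, limma adjusted p = 0.476), and it was lower in tumor than in spleen Tregs by 2.83-fold in OX40plus cells and 3.18-fold in OX40minus cells (limma adjusted p = 6.04e-06 and 2.55e-06). The call between tumor gates changed when tumor OX40plus mouse 4, the lowest sample, was left out (log2 fold change 0.39, limma adjusted p = 0.048).

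**Figure D2:**
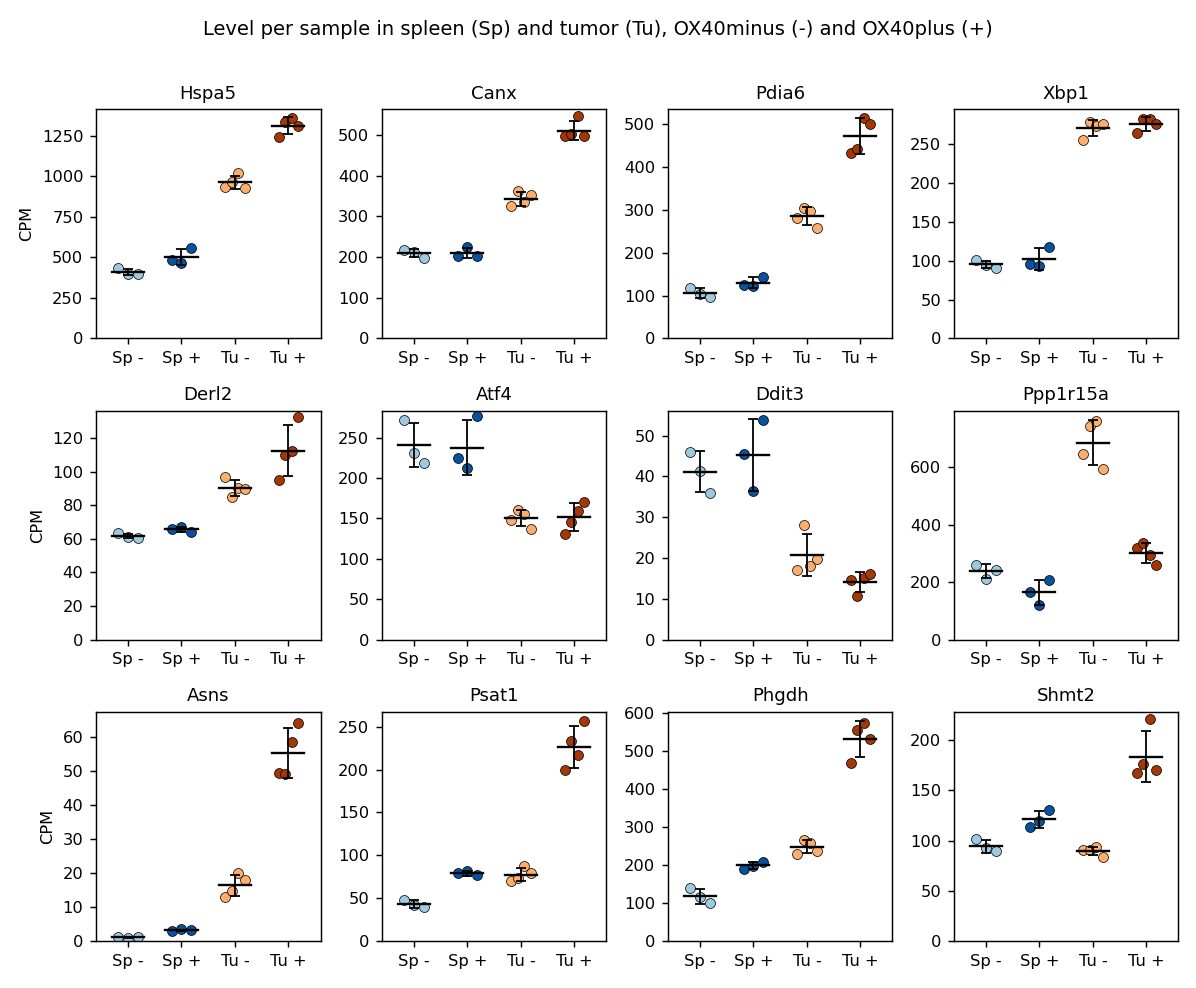
Level of 12 members in CPM (linear axes from 0) in each of the 14 samples, by group (Sp, spleen; Tu, tumor; - for OX40minus, + for OX40plus). Points are mice, bars the mean and whiskers the SD (n = 3 for spleen, n = 4 for tumor); Hspa5 separates all 4 groups, Xbp1 separates the tissues while its gates overlap, and Ppp1r15a is highest in tumor OX40minus samples.

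The ER stress response element (ERSE), to which ATF6 binds together with NF-Y and to which XBP1 can bind, is written CCAAT, 9 bases of any kind, CCACG. RefSeq windows of GRCm38.p6, from 250 bases before to 50 bases after a gene's start, were found for 26 of the 29 members. These letters, on either strand, were in the windows of 7 of the 26 members. By window this was 25% of the members' 28 windows, against 0.119% of all 32851 windows and 0.125% of those of genes tested. The members were chosen as genes of this response, so the shares are not an independent comparison. The 8 matches are shown because this element is the textbook mark of ER chaperone promoters, with the fixed letters in capitals and read in the direction of the element.
Hspa5: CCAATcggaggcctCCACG
Hsp90b1, first: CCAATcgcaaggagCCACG
Hsp90b1, second: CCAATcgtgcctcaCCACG
Canx: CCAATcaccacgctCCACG
Dnajc3: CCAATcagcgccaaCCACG
Creld2: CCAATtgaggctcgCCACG
Pdia6: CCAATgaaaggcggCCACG
Syvn1: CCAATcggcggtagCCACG
Of these 7 members, Hspa5, Hsp90b1, Canx, Creld2 and Pdia6 were called higher in tumor OX40plus Tregs, and Dnajc3 and Syvn1 were not. Dnajb11, Pdia3, Pdia4 and P4hb, whose windows held no match, were called higher too. So were Derl2 and the 5 enzymes of amino acid and one-carbon metabolism, also without a match. Over all 29 members, with or without a window, 15 were called higher. Whether the calls go with the letters was not tested. A match is a description of letters, not of binding. The 250 bases before the start are shown for Hspa5 (plus strand, chr2:34771840-34772089) and Pdia6 (plus strand, chr12:17266339-17266588), the readout gene of the response and the disulfide isomerase with the largest tumor difference, with the element in capitals.
Hspa5 promoter: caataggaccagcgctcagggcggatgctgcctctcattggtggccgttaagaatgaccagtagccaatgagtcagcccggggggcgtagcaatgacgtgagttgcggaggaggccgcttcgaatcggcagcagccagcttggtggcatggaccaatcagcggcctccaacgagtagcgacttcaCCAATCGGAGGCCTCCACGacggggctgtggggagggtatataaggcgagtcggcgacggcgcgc
Pdia6 promoter: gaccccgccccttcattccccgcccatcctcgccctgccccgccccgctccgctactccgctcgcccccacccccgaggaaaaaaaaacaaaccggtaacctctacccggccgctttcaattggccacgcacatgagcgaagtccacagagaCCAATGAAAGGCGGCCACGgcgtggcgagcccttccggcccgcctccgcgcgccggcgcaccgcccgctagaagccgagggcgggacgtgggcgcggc
The element begins 65 bases before the start in Hspa5 and 98 bases before it in Pdia6.

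All 4 protein disulfide isomerases, which form and rearrange disulfide bonds in ER proteins, were called higher in tumor OX40plus Tregs, and none was called in spleens. Pdia6, an isomerase that also acts on the sensors of the response, was at 281, 304.1, 297.1 and 258 CPM in tumor OX40minus samples and at 431.6, 443.2, 513.6 and 501.4 CPM in tumor OX40plus samples. This was a 1.66-fold difference without overlap (log2 fold change 0.73, SE 0.09, limma adjusted p = 1.54e-05). In spleens Pdia6 was at 118.3, 104.4 and 96.26 CPM in OX40minus and at 125.2, 121.7 and 144.1 CPM in OX40plus samples, also without overlap but not called (0.29, SE 0.11, limma adjusted p = 0.115).

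P4hb, which encodes protein disulfide isomerase itself and a subunit of prolyl 4-hydroxylase, was at 425.6, 384.4, 422.8 and 401 CPM in tumor OX40minus samples and at 592.2, 568.9, 579.4 and 570.4 CPM in tumor OX40plus samples. The tumor gates did not overlap (1.42-fold, log2 fold change 0.50, SE 0.08, limma adjusted p = 2.25e-04). The spleen gates did, at 263.9, 221.1 and 210.1 CPM in OX40minus and 238.5, 213.7 and 265.4 CPM in OX40plus samples.

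Pdia4, an isomerase with additional thioredoxin-like domains, was at 304.3, 289.9, 340 and 283.4 CPM in tumor OX40minus samples and at 350.8, 345.4, 410.9 and 367.7 CPM in tumor OX40plus samples. The gates were close but did not overlap (1.21-fold, log2 fold change 0.28, SE 0.08, limma adjusted p = 0.0152). In spleens it was at 159.8, 148.3 and 140.7 CPM in OX40minus and 154.6, 147 and 169.1 CPM in OX40plus samples, which overlapped. Pdia3, or ERp57, which works on glycoproteins held by calnexin, averaged 1054 ± 46.8 CPM in tumor OX40minus and 1256 ± 53.9 CPM in tumor OX40plus samples (SD, n = 4 each; 0.25 on the log2 scale, SE 0.08, limma adjusted p = 0.0202). These 2 were the least firm of the isomerase calls. Pdia3 was not called with the mouse number as a block (limma adjusted p = 0.05995), and both lost their calls without tumor OX40minus mouse 4 (0.06683 for Pdia3 and 0.05159 for Pdia4) or tumor OX40plus mouse 3 (0.05581 and 0.05736).

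Neither the sensor Atf6 nor the factor Xbp1 was called between gates. Xbp1, whose mRNA is spliced by IRE1, was at 100.7, 94.16 and 91.27 CPM in spleen OX40minus and at 95.47, 92.95 and 118.1 CPM in spleen OX40plus samples. In tumors it was at 255.7, 278.8, 273.3 and 276.4 CPM in OX40minus and at 264.4, 282.9, 282.9 and 276.2 CPM in OX40plus samples. The gates overlapped in both tissues (tumor log2 fold change 0.03, SE 0.08, limma adjusted p = 0.805), while every tumor sample was above every spleen sample, by 2.72-fold in OX40plus and 2.84-fold in OX40minus cells (limma adjusted p = 6.58e-10 and 5.68e-10). Gene-level values do not separate spliced from unspliced Xbp1. Atf6, the sensor that is itself cut into a transcription factor, averaged 78.4 ± 12.2 CPM in tumor OX40minus and 81.3 ± 9.27 CPM in tumor OX40plus samples (SD, n = 4 each), against 53.1 ± 6.03 and 48.5 ± 4.32 CPM in spleen OX40minus and OX40plus samples (SD, n = 3 each), and was not called between gates in either tissue.

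Genes of ER-associated degradation, which moves misfolded proteins back to the cytosol for the proteasome, mostly did not follow the chaperones. Derl2, a derlin of the ER membrane, was the only one of 6 called between tumor gates. It was at 96.68, 84.77, 90.39 and 89.58 CPM in OX40minus and at 95.28, 109.9, 112.4 and 132.7 CPM in OX40plus samples. The gates overlapped through mouse 1, in which OX40plus was the lower (1.24-fold between means, log2 fold change 0.31, SE 0.09, limma adjusted p = 0.0149), and in spleens it was at 63.2, 61.31 and 60.72 CPM in OX40minus and 65.78, 67.17 and 64.32 CPM in OX40plus samples, not called.

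Of the other 5, Derl1, a second derlin, and Sel1l, the adaptor of the ubiquitin ligase of this pathway, had fitted differences of 0.04 and -0.01 between tumor gates. Edem1, a mannosidase-like lectin that selects glycoproteins for degradation, had values of 450.3 to 522 CPM in tumor OX40minus and 384.5 to 443 CPM in tumor OX40plus samples, without overlap but not called (log2 fold change -0.19, SE 0.08, limma adjusted p = 0.0637). Herpud1, an ER membrane protein of the same complex, was at 144.7 to 163.7 and 125.2 to 144.5 CPM in the OX40minus and OX40plus gates (-0.14, SE 0.09, limma adjusted p = 0.21). Syvn1, the ubiquitin ligase HRD1, was at 68.1 to 100.4 and 52.57 to 88.69 CPM, overlapping (-0.26, SE 0.14, limma adjusted p = 0.163). In spleens the gates of Edem1 did not overlap, at 364.5 to 392.3 CPM in OX40minus and 282.5 to 337.1 CPM in OX40plus samples (-0.25, SE 0.09, limma adjusted p = 0.114). Those of Syvn1 did not overlap in the other direction, at 118.3 to 118.9 and 120.1 to 144.9 CPM (0.12, SE 0.16, limma adjusted p = 0.874). Neither was called in spleens. The tumor calls of Edem1 and Syvn1 changed when tumor OX40plus mouse 1 was left out (log2 fold change -0.22 and -0.38, limma adjusted p = 0.04965 and 0.03624), and Edem1 was called lower in tumors with library sizes alone as the scaling (0.03935).

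Of the 5 regulators linked to ATF4, none was called higher and 2 were called lower in tumor OX40plus Tregs. Atf4 RNA was at 148, 160.4, 155.2 and 137.2 CPM in tumor OX40minus and at 131, 146.2, 159.8 and 170.4 CPM in tumor OX40plus samples. In spleens it was at 271.7, 231.3 and 219.1 CPM in OX40minus and at 224.7, 212.3 and 276.2 CPM in OX40plus samples. The gates overlapped in both tissues (tumor log2 fold change 0.01, SE 0.11, limma adjusted p = 0.945), and all spleen samples lay above all tumor samples. ATF4 is controlled largely at translation, which these RNA values do not measure.

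Ppp1r15a encodes GADD34, the phosphatase subunit that removes the phosphate from eIF2alpha, and lies at chr7:45522916-45526268 on the minus strand. It was at 647, 742.9, 760.9 and 594.6 CPM in tumor OX40minus samples and at 317.6, 337, 295 and 258.8 CPM in tumor OX40plus samples, 2.27-fold lower without overlap (log2 fold change -1.18, SE 0.14, limma adjusted p = 9.61e-06). In spleens it was at 261.1, 212.1 and 241.8 CPM in OX40minus and at 166.3, 121.8 and 209.2 CPM in OX40plus samples, 1.47-fold lower without overlap (-0.55, SE 0.16, limma adjusted p = 0.047). The spleen call was lost under 14 of 22 alternatives, among them leaving out any 1 spleen sample other than OX40plus mouse 3 (limma adjusted p up to 0.2242, without OX40plus mouse 2). In tumor samples it moved with a list of 9 measured genes of dissociation and heat stress, such as Fos and Jun, whose summed level was 6637 to 7861 CPM in OX40minus and 3390 to 4017 CPM in OX40plus samples, 5 of the 9 called lower and 1, Hsph1, higher. In spleens the list's sums overlapped, at 1848 to 2490 CPM in OX40minus and 1582 to 2233 CPM in OX40plus samples, with 1 of the 9 called higher and 1 lower. The part of that list in the differences of Ppp1r15a was not tested.

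Ddit3, which encodes CHOP, the factor linked to stress-induced death, was at 17.06, 28.2, 18.07 and 19.75 CPM in tumor OX40minus and at 14.72, 10.58, 15.1 and 16.16 CPM in tumor OX40plus samples. The gates did not overlap (1.46-fold lower in OX40plus, log2 fold change -0.54, SE 0.18, limma adjusted p = 0.0287). The call was lost under 5 of 22 alternatives, among them without OX40minus mouse 2 (limma adjusted p = 0.09823), without OX40plus mouse 2 (0.0906), and with the mouse number as a block (0.07175). In spleens Ddit3 was at 46.08, 41.31 and 35.97 CPM in OX40minus and at 45.4, 36.32 and 53.85 CPM in OX40plus samples, which overlapped.

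Trib3 and Chac1, a pseudokinase that dampens ATF4 and an enzyme that degrades glutathione, are both induced by ATF4 and CHOP and were low in every group. Trib3 was at 4.101 to 8.143 CPM in tumor OX40minus and at 0.7625 to 5.017 CPM in tumor OX40plus samples (log2 fold change -1.03, SE 0.47, limma adjusted p = 0.0955). In spleens it was at 5.439 to 6.165 CPM in OX40minus and 2.729 to 4.078 CPM in OX40plus samples, without overlap but not called (-0.77, SE 0.54, limma adjusted p = 0.581). With the spleen groups alone in the fit it was called lower (limma adjusted p = 0.03916). Chac1 was at 0, 0, 0.7845 and 0.7212 CPM in tumor OX40minus and at 1.421, 0, 2.076 and 0.8331 CPM in tumor OX40plus samples, and at 0.04121 to 0.6306 CPM in spleens. Several of its samples lie at or near the level of 3 counts, so no fold change is given and no direction is read. Both tumor calls changed with 1 sample: without tumor OX40plus mouse 3 Trib3 was called lower (limma adjusted p = 0.04521), and without tumor OX40plus mouse 2 Chac1 was called higher (0.03068).

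All 5 enzymes that ATF4 is known to induce in amino acid and one-carbon metabolism were called higher in tumor OX40plus Tregs, and 3 of them in spleen OX40plus Tregs. Asns, asparagine synthetase, which makes asparagine from aspartate and glutamine, was at 1.116, 0.9864 and 1.03 CPM in spleen OX40minus and at 3.045, 3.363 and 3.117 CPM in spleen OX40plus samples. In tumors it was at 12.8, 14.74, 19.83 and 17.92 CPM in OX40minus and at 49.35, 49.04, 58.31 and 64.08 CPM in OX40plus samples. Asns lies at chr6:7675169-7693254 on the minus strand. Its 4 groups were fully separated in that order. The gates differed 3.41-fold in tumors (log2 fold change 1.77, SE 0.19, limma adjusted p = 3.71e-06) and 2.96-fold in spleens (1.56, SE 0.22, limma adjusted p = 2.47e-04), though the spleen call was lost with limma-voom weights (adjusted p = 0.06102). Between tissues Asns was 17.5-fold higher in tumor OX40plus and 15.2-fold higher in tumor OX40minus than in spleen Tregs of the same gate name (limma adjusted p = 7.24e-11 and 1.76e-10), with the largest fitted difference of the 29 members in both.

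Psat1, phosphoserine aminotransferase of the serine synthesis pathway, was at 69.88, 73.68, 87.15 and 78.88 CPM in tumor OX40minus and at 199.4, 233, 216.7 and 256.5 CPM in tumor OX40plus samples. It was 2.92-fold higher (log2 fold change 1.55, SE 0.10, limma adjusted p = 2.82e-08), the smallest adjusted p of the members in this comparison. In spleens it was at 48.28, 42.01 and 39.06 CPM in OX40minus and at 78.74, 81.94 and 76.46 CPM in OX40plus samples, 1.84-fold higher (0.88, SE 0.11, limma adjusted p = 1.33e-04). Neither tissue showed overlap, and the spleen OX40plus samples lay in the range of the tumor OX40minus samples.

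Phgdh, phosphoglycerate dehydrogenase, the first enzyme of serine synthesis, was at 228.2, 265.5, 257.1 and 237.2 CPM in tumor OX40minus and at 466.2, 554, 573.4 and 530.9 CPM in tumor OX40plus samples (2.15-fold, log2 fold change 1.10, SE 0.10, limma adjusted p = 7.76e-07). Spleen values were 138.3, 116.2 and 99.1 CPM in OX40minus and 189.9, 197.1 and 208 CPM in OX40plus samples (1.70-fold, 0.76, SE 0.11, limma adjusted p = 4.61e-04). The 4 groups did not overlap.

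Shmt2, the mitochondrial serine hydroxymethyltransferase that turns serine into glycine and a one-carbon unit, was at 90.84, 90.54, 93.15 and 84.08 CPM in tumor OX40minus and at 167.1, 176.2, 221.4 and 170 CPM in tumor OX40plus samples (2.04-fold, log2 fold change 1.03, SE 0.09, limma adjusted p = 8.70e-07). In spleens it was at 101.7, 92.48 and 89.21 CPM in OX40minus and at 113.4, 119.8 and 130.2 CPM in OX40plus samples, without overlap and just short of a call (0.36, SE 0.11, limma adjusted p = 0.0533; called under 6 of 22 alternatives, with the lowest adjusted p at 0.02047 without tumor OX40plus mouse 3). The OX40minus samples of tumor and spleen overlapped, so that Shmt2 stood apart by tissue in OX40plus cells (log2 fold change 0.59, limma adjusted p = 7.96e-05) and not in OX40minus cells (-0.08, limma adjusted p = 0.54). Mthfd2, the next mitochondrial one-carbon enzyme, averaged 82.2 ± 13.2 CPM in tumor OX40minus and 114 ± 12.7 CPM in tumor OX40plus samples (SD, n = 4 each; 0.47 on the log2 scale, SE 0.12, limma adjusted p = 0.00549), and 66.9 ± 9.39 and 70.1 ± 2.2 CPM in the spleen gates (SD, n = 3 each).

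The element bound by ATF4 with C/EBP factors, written TGATG, any base, AA, was in the windows of 4 of the 26 members. By window this was 14.3% of the members' 28 windows, against 3.97% of all windows and 2.5% of those of genes tested. The choice of members limits this comparison too. The 4 matches are shown, with the fixed letters in capitals, because 3 of them lie in ATF4-linked genes.
Herpud1: TGATGcAA
Trib3: TGATGtAA
Chac1: TGATGcAA
Asns: TGATGaAA
The 250 bases before the start of Asns, on the minus strand of chr6:7693210-7693459, hold the letters 23 bases before the start, shown in capitals.
Asns promoter: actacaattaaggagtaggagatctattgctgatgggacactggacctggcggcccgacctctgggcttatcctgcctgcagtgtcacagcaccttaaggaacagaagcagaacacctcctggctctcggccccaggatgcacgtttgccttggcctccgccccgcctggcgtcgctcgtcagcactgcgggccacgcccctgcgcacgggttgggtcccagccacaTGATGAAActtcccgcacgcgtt
Asns was the only one of these 4 called between tumor gates.

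**Figure D3:**
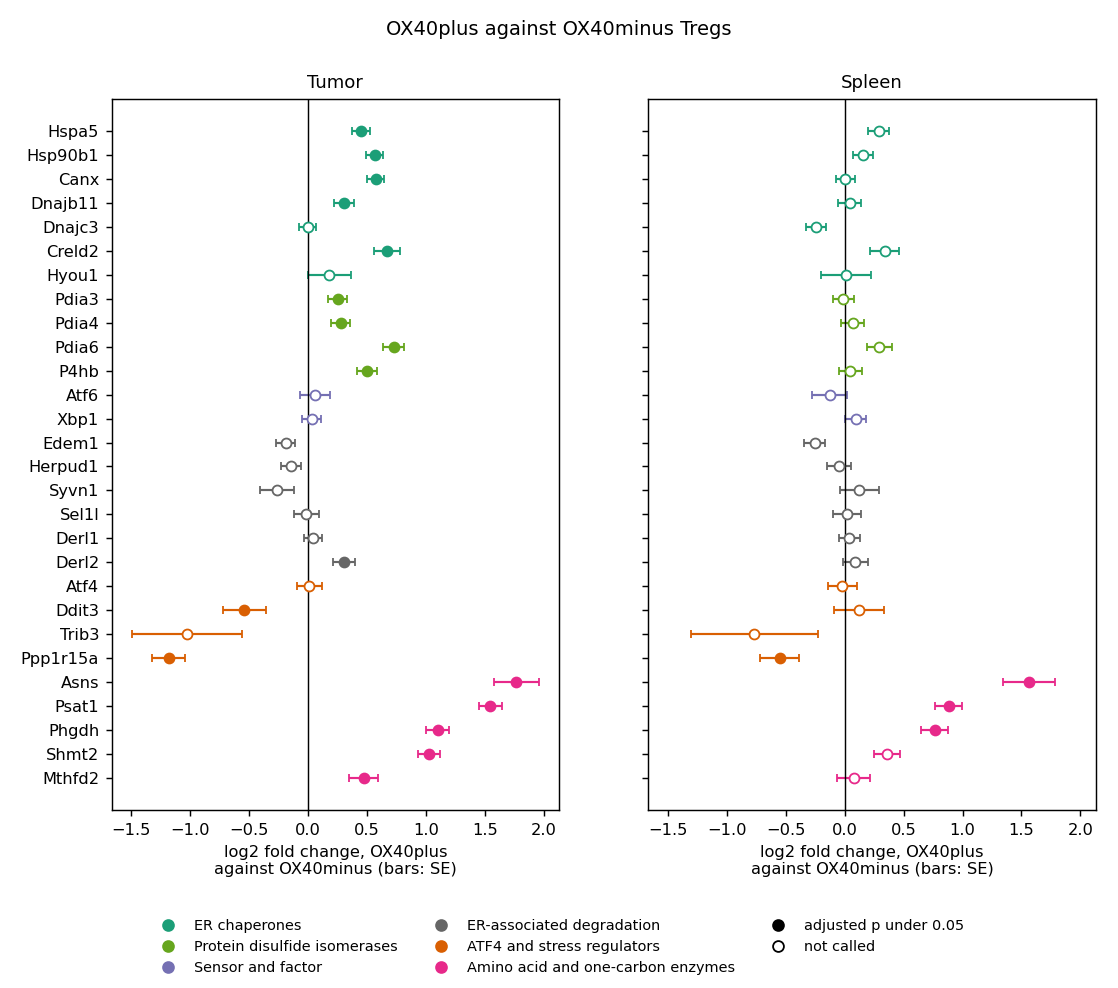
Log2 fold change of OX40plus against OX40minus Tregs in tumors (left) and spleens (right) for 28 members coloured by role, with bars for the SE. Filled points were called at an adjusted p under 0.05; Chac1 is not drawn. In tumors the filled points are chaperones, disulfide isomerases, Derl2 and all 5 enzymes to the right and Ddit3 and Ppp1r15a to the left, and in spleens Asns, Psat1 and Phgdh to the right and Ppp1r15a to the left.

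Whether the difference between gates was larger in tumors than in spleens was tested as an interaction. It was called for 5 members, all with the larger OX40plus excess in tumors, where 10.9% of all genes tested were called (4.53% with a positive and 6.38% with a negative value, taken as the tumor minus the spleen log2 fold change). These were Shmt2 (log2 difference 0.67, SE 0.14, limma adjusted p = 0.00758), Psat1 (0.67, SE 0.15, limma adjusted p = 0.0111), Canx (0.57, SE 0.11, limma adjusted p = 0.00293), P4hb (0.45, SE 0.13, limma adjusted p = 0.0335) and Hsp90b1 (0.41, SE 0.11, limma adjusted p = 0.0268). Canx, Psat1 and Shmt2 were called under all 21 alternatives that gave this value. Hsp90b1 was not called under 7 and P4hb under 8, including the mouse block (limma adjusted p = 0.09401 and 0.07692) and several of the fits without 1 sample. For Asns the interaction was 0.20 (SE 0.29, limma adjusted p = 0.717), for Hspa5 0.16 (SE 0.12, limma adjusted p = 0.427) and for Phgdh 0.34 (SE 0.15, limma adjusted p = 0.169), so a gap between the tissues was not shown for them. For Pdia6 it was 0.43 (SE 0.14, limma adjusted p = 0.0575), and it was called under 4 of 21 alternatives, namely with relative log expression factors (0.03892) and without spleen OX40minus mouse 3 (0.04255), spleen OX40plus mouse 3 (0.03207) or tumor OX40plus mouse 1 (0.03917). For Ppp1r15a it was -0.63 (SE 0.21, limma adjusted p = 0.0723), which was called with the mouse block (0.03996), with library sizes alone (0.03609) and without spleen OX40plus mouse 2 (0.01204).

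Between tissues, 22 members were higher and 4 lower in tumor than in spleen OX40plus Tregs, and 20 higher and 4 lower in OX40minus Tregs. Over all genes tested, 64.5% were called in OX40plus cells (30.3% higher and 34.2% lower) and 59% in OX40minus cells (29.7% higher and 29.3% lower). The 2 tissue comparisons use different samples. All 4 disulfide isomerases, 5 of 7 chaperones, both Xbp1 and Atf6 and 5 of 6 degradation genes were higher in tumor cells of each gate. So were the enzymes Asns, Psat1 and Phgdh, while Shmt2 and Mthfd2 were called higher in OX40plus cells alone. Of the regulators linked to ATF4, Ppp1r15a was higher in tumor cells, 1.86-fold in OX40plus and 2.88-fold in OX40minus cells (limma adjusted p = 7.70e-05 and 3.34e-07). The exceptions with lower levels in tumor cells of both gates were Hyou1, Syvn1, Atf4 and Ddit3. In OX40plus cells their log2 fold changes were -1.50 for Hyou1, -0.90 for Syvn1, -0.64 for Atf4 and -1.67 for Ddit3, and in OX40minus cells -1.67, -0.52, -0.68 and -1.01, with limma adjusted p from 1.77e-06 to 0.00893. Dnajc3, Trib3 and Chac1 were not called between tissues in either gate, nor were Shmt2 and Mthfd2 in OX40minus cells.

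**Figure D4:**
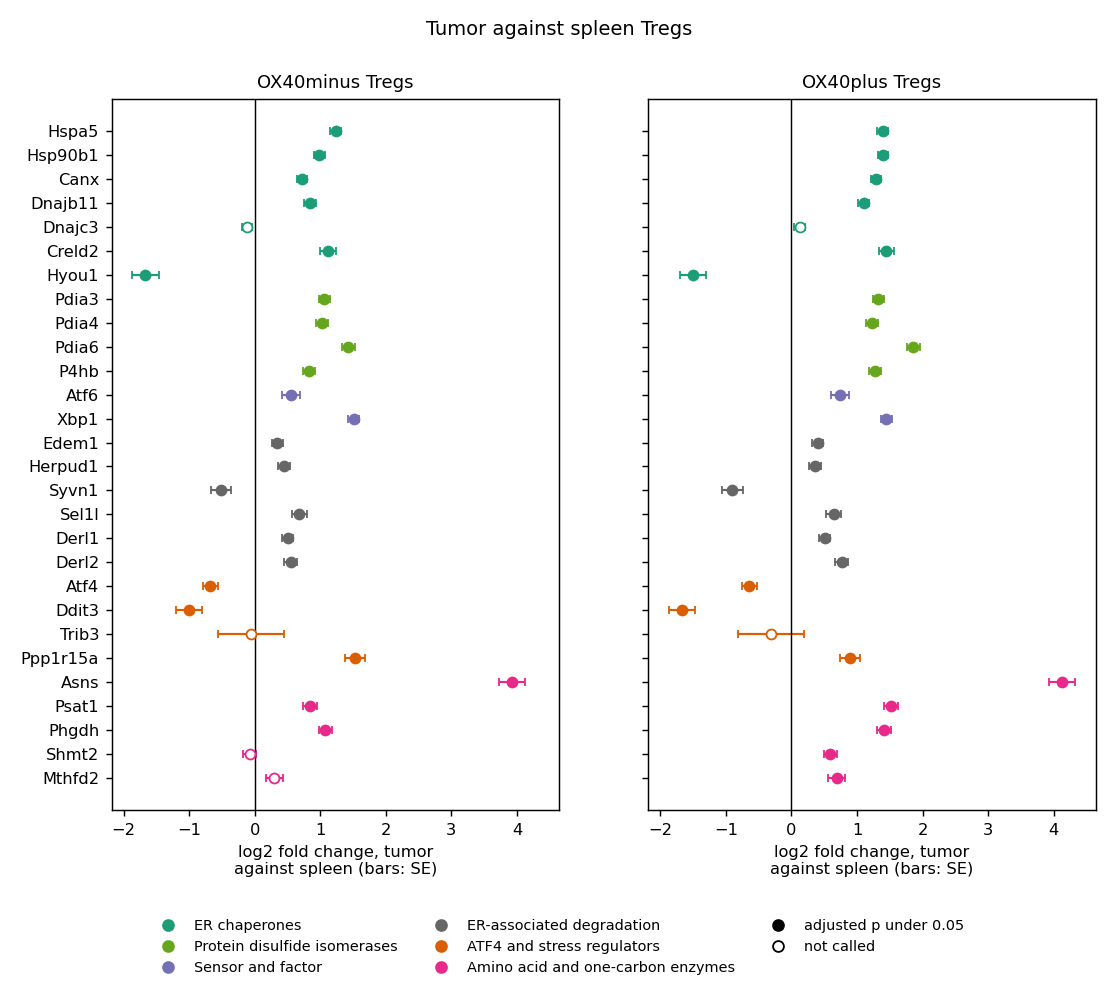
Log2 fold change of tumor against spleen Tregs in OX40minus (left) and OX40plus cells (right) for 28 members coloured by role, with bars for the SE; filled points were called at an adjusted p under 0.05, and Chac1 is not drawn. Asns lies farthest to the right in both panels, and Hyou1, Syvn1, Atf4 and Ddit3 lie to the left in both.

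Tissue was sampled together with other differences. Gates of the same name were not at equal Tnfrsf4 levels in the tissues. Tnfrsf4 was at 218.2 to 297.9 CPM in spleen OX40minus and 588.2 to 809.5 in spleen OX40plus samples. In tumors it was at 1816 to 2159 CPM in OX40minus and 3166 to 3583 in OX40plus samples. Beside Ms4a1, given above, the B cell factor Ebf1 averaged 17.1 and 15.8 CPM in spleen OX40minus and OX40plus samples and 0.669 and 1.49 CPM in the tumor OX40minus and OX40plus samples. Reads of ribosomal protein genes took 5.21% to 7.64% of counts in spleen samples and 1.63% to 3.03% in tumor samples. The 5 measured melanoma genes summed to 11.22 to 19.6 CPM in spleens and to 68.89 to 180.4 CPM in tumors, and none of them was called between tumor gates. The 9 genes of dissociation and heat stress summed to 1582 to 2490 CPM in spleens and 3390 to 7861 CPM in tumors, with 7 called higher and 1 lower in OX40plus cells and 8 higher in OX40minus cells. Of 11 proliferation genes, 10 were higher in tumor cells of each gate, and 1 was lower in OX40minus cells. Of 10 macrophage genes, 6 were lower and 1 higher in tumor OX40plus cells and 7 lower in tumor OX40minus cells. Of 6 dendritic cell genes, 2 were higher in tumor OX40plus and 4 in tumor OX40minus cells, and of 5 natural killer (NK) cell genes 4 and 3 were lower and 1 higher in each. Of 6 tested fibroblast and endothelial genes, 1 was higher and 1 lower in tumor OX40plus cells and 2 higher and 1 lower in tumor OX40minus cells, and of 2 CD8 genes 1 was higher and 1 lower in OX40plus and 1 higher in OX40minus cells. For comparison, 64.5% of all genes tested were called between tissues in OX40plus cells (30.3% higher and 34.2% lower) and 59% in OX40minus cells (29.7% higher and 29.3% lower). The fibroblast and endothelial genes, at 33.3% and 50% called, were under these shares. The part of these lists and of ribosomal protein reads in the tissue differences of the members was not tested.

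Between gates, several other lists differed too, proliferation genes upward in OX40plus cells and lists of other cell types downward or not at all. All 11 measured proliferation genes were called higher in tumor OX40plus cells, with sums of 1838 to 2301 CPM in OX40minus and 4235 to 4680 CPM in OX40plus samples, and 9 of 11 in spleen OX40plus cells, with sums of 848.4 to 1039 and 1334 to 2025 CPM. Of 10 macrophage genes, 8 were called lower in tumor OX40plus cells (226.8 to 336.2 CPM in OX40minus and 56.35 to 67 CPM in OX40plus samples) and 9 in spleen OX40plus cells (752.8 to 965.7 and 83.14 to 198.5 CPM). Of the B and plasma cell genes Ms4a1, Ebf1, Sdc1 and Derl3, none was called between gates in either tissue. In tumor OX40plus cells 4 of 6 dendritic cell genes were lower (134.4 to 193.4 CPM in OX40minus and 37.91 to 67.24 CPM in OX40plus samples), as were 4 of 5 NK cell genes (8.612 to 17.62 and 4.201 to 8.521 CPM), 2 of 6 tested fibroblast and endothelial genes and 1 of 2 CD8 genes. In spleens 1 fibroblast and endothelial gene was called lower in OX40plus cells and no dendritic, NK or CD8 gene was called. For comparison, 38.5% of all genes tested were called between tumor gates (18.6% higher and 20% lower) and 7.98% between spleen gates (4.39% higher and 3.6% lower). The fibroblast and endothelial list, with 33.3% called in tumors, was near the tumor share, and the CD8 list holds only 2 genes. The part of these lists in the gate differences of the members was not tested.

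To compare genes with each other, CPM were divided by the length of all exons of a gene in kilobases (GENCODE vM21). This length counts the exons of every annotated transcript, expressed or not, so close ranks are uncertain. Pdia3 was the highest member in all 4 groups, at 162 CPM per kb in spleen OX40minus and 400 in tumor OX40plus Tregs. In tumor OX40plus cells it was followed by Hspa5 at 310, Hsp90b1 at 223, Phgdh at 214 and P4hb at 202 CPM per kb. In tumor OX40minus cells Ppp1r15a ranked second, at 234 CPM per kb, beside Hspa5 at 227. Chac1 was lowest in every group, at 0.661 CPM per kb in tumor OX40plus cells. In spleen OX40minus cells Atf4, at 102 CPM per kb, stood just above Hspa5, at 96.8, whereas in tumor OX40plus cells Atf4 was at 64.4.

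Further genes of the same pathways were 115 symbols in 6 lists, of which 103 were tested. In tumor OX40plus cells 42 were called higher and 8 lower, 48.5% in all. In spleen OX40plus cells 3 were called higher and 2 lower, 4.85% in all. Over all genes tested, 38.5% were called in tumors (18.6% higher and 20% lower) and 7.98% in spleens (4.39% higher and 3.6% lower). Protein translocation and N-glycosylation, the entry to the ER, had 17 of 22 genes higher and none lower in tumors (median log2 fold change 0.47), and none called in spleens. Its largest called differences were in Rpn1, a subunit of the oligosaccharyltransferase, at 271.9 ± 17.8 CPM in tumor OX40minus and 433.2 ± 22.5 CPM in tumor OX40plus samples (SD, n = 4 each; 0.67 on the log2 scale, limma adjusted p = 9.51e-06), and in Sec61g, a subunit of the translocation channel (0.64, limma adjusted p = 0.00781). Other ER folding genes had 5 of 15 higher (median 0.25), with Fkbp11, a prolyl isomerase, at 1.12 (limma adjusted p = 0.00831) and Prdx4, an ER peroxiredoxin, at 0.85 (limma adjusted p = 8.79e-05). Other degradation genes had none of 18 higher and 2 lower (median 0.06), namely Os9, a lectin of the HRD1 complex, at -0.38 (limma adjusted p = 0.00343) and Rnf139, an ER ubiquitin ligase, at -0.33 (limma adjusted p = 0.00232).

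Other sensors and regulators had 1 of 18 higher and 5 lower in tumors (median -0.03). That was 33.3% called, near the 38.5% of all genes tested. The gene called higher was Eif2s1, which encodes eIF2alpha (log2 fold change 0.84, limma adjusted p = 3.27e-06). Atf3, a stress factor downstream of ATF4, was lower at -1.83 (limma adjusted p = 2.35e-04), from 48.8 ± 14.2 to 14.3 ± 6.19 CPM (SD, n = 4 each), and was lower in spleens too at -1.92 (limma adjusted p = 0.00251), from 3.71 ± 1.02 to 0.981 ± 0.139 CPM (SD, n = 3 each). Nupr1, a small stress-induced nuclear protein, was lower in tumors at -1.09 (limma adjusted p = 0.0283). In spleens Creb3l2, a membrane-bound factor of the ATF6 type, was higher at 0.81 (limma adjusted p = 0.0452).

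Genes of amino acid uptake and one-carbon metabolism outside the 29 had 8 of 18 higher and none lower in tumors (median 0.79) and 2 of 18 higher in spleens. Shmt1, the cytosolic serine hydroxymethyltransferase, rose from 27.9 ± 3.85 CPM in tumor OX40minus to 113.2 ± 5.94 CPM in tumor OX40plus samples (SD, n = 4 each; 2.03 on the log2 scale, limma adjusted p = 5.34e-09) and was higher in spleen OX40plus cells too (0.74, limma adjusted p = 0.00129). The other spleen call was Slc1a5, a glutamine transporter (0.33, limma adjusted p = 0.0223). Cth, which makes cysteine, was called higher in tumors but averaged 0.0178 CPM in OX40minus, under the level of 3 counts, and 0.758 CPM in OX40plus samples.

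Cytosolic tRNA synthetases, several of which ATF4 induces, had 11 of 12 genes higher and 1 lower in tumors (median 0.65), and none higher and 1 lower in spleens. The interaction was called for 8 of the 12, all with positive values, where 10.9% of all genes tested were called (4.53% positive). Mars, for methionine, had the largest difference at 0.83 (limma adjusted p = 1.34e-05), from 84 ± 8.79 to 150.1 ± 18.9 CPM (SD, n = 4 each), followed by Aars, for alanine, at 0.72 (limma adjusted p = 1.85e-05). Wars, for tryptophan, which interferon is known to induce, was the 1 gene lower in tumors (-0.32, limma adjusted p = 0.0152) and in spleens (-0.43, limma adjusted p = 0.0224).

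**Figure D5:**
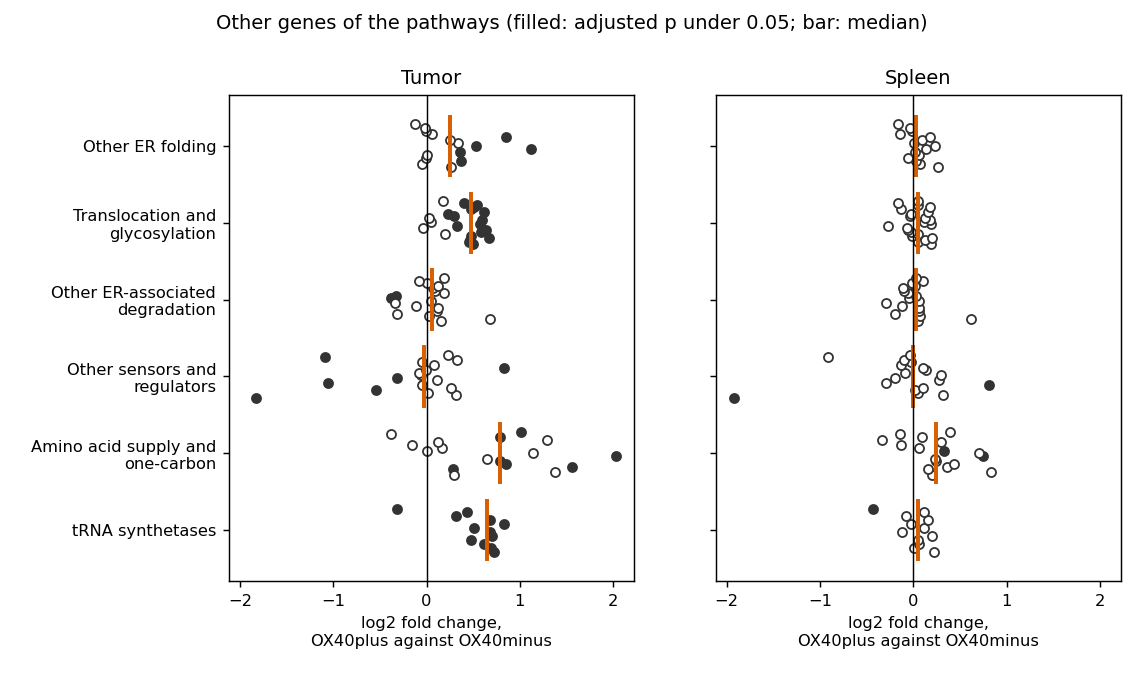
Log2 fold change of OX40plus against OX40minus Tregs in tumors (left) and spleens (right) for the tested genes of 6 further lists of the pathways (1 point per gene, filled where the adjusted p was under 0.05; orange bar, list median). Cth is not drawn because its level was near 0. In tumors the medians of translocation and glycosylation, amino acid supply and tRNA synthetases lie at 0.47, 0.79 and 0.65, and in spleens nearly all points are open.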

How the data were processed

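RNA was sequenced from sorted mouse Tregs in 28 libraries. The authors used kallisto and limma after bcl2fastq 2.19, with genome build mm10, per the submitters' processing notes. Not given in the sources used here were the summary from transcripts to genes, the scaling and the use of strand. The deposited table holds log2 CPM in the form of limma's voom, with 0.5 added to each count, as read from the values. Inverting it with each library's lowest value gave estimated counts, 43.6% to 49.3% of them whole within 0.01, against 0.911% to 1.31% with the library size raised by 10%. kallisto splits reads shared by similar transcripts, so values of genes that have near-identical copies are uncertain.

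The 2 libraries of a mouse and gate were averaged. Genes reaching 0.3823 CPM (10 counts in the median sample) in at least 3 samples and 15 counts in all were tested, 12512 of 13103. limma 3.58.1 (R 4.3.3) was fitted to the 14 samples with 1 term per group, a mean-variance trend and Benjamini-Hochberg adjustment. Fold changes are on the scale of log2 CPM with 0.5 added to the counts, which understates changes of low genes. The code of the fit was run on simulated counts of independent samples, with 200 changed genes and the same setting of spread for all genes. That does not check the calls made here. p-values measure the spread between mice of a group, as far as the titles name separate mice.

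The titles give mice a number shared by both gates, so samples of 1 number in a tissue are taken as 1 animal. Whether tumor and spleen samples of 1 number are the same animal is not stated in the titles. Every fit treated tumor and spleen samples as separate animals. Correlations of same-numbered samples' deviations were 0.06, -0.11, 0.04 and -0.02 in tumors and -0.06, 0.11 and -0.16 in spleens. Between gates, samples of different numbers gave -0.07 to 0.11 in tumors and -0.23 to 0.23 in spleens. These values do not show same-numbered samples to be more alike than others. Fits with the mouse number within a tissue as a block, other scalings, filters, added counts, weights and left-out samples were alternatives. Full values are given for members called in a gate comparison or the interaction and at 10 CPM or more, at most 3 per role and contrast, and for Hspa5, Xbp1, Atf4 and Ddit3. From the other lists, up to 2 highest and 2 lowest called genes per gate comparison are named. The members and lists were chosen with earlier results of these data known. Of the B and plasma cell list, 1 measured gene and the list's sum are not reported here.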

Additional observations from a re-analysis of the deposited data

Results flagged for a closer look

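In 58 groups of 4 tumor samples, 1 for each member and gate, the distance of the highest or lowest sample from its neighbour was compared with the range of the group. It stood out in 2 groups, and chance alone gives about 1 in 20. Canx was at 546.1 CPM in tumor OX40plus mouse 3, where the other 3 mice lay between 497.8 and 502.6 CPM, a gap of 0.899 of the range. Herpud1 was at 163.7 CPM in tumor OX40minus mouse 2, where the others lay between 144.7 and 145.8 CPM, a gap of 0.941 of the range. In both genes the other 3 mice were close together, so a small difference in CPM makes a large share of the range.

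The gap between OX40plus and OX40minus Tregs differed between tumors and spleens for 5 members, by the interaction in limma's model. The log2 difference, tumor minus spleen, was 0.668 for Shmt2, 0.6661 for Psat1, 0.5706 for Canx, 0.4542 for P4hb and 0.4096 for Hsp90b1. In spleens the gate difference of Canx was 0.00 and that of Psat1 0.88 on the log2 scale, so the 5 reached this in different ways: Psat1 was higher in OX40plus cells of both tissues, while Canx, P4hb and Hsp90b1 were called between gates in tumors and not in spleens.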

How the results depend on the processing

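No result reversed its direction where called. Of the tests of members repeated under each alternative, tissue calls were lost in none and gained for Mthfd2 in OX40minus cells in 2 fits. With library size alone as the scaling, which moved the median of all genes by -0.10 between tissues in OX40plus cells, 7 members were higher in spleen OX40plus cells in place of 3, and 1 member, Ppp1r15a, had a negative interaction called in place of 0. With the mouse number as a replicate block, 1 member was lower in tumor OX40plus cells in place of 2, and the interaction had 3 positive members in place of 5 and 1 negative, Ppp1r15a, in place of 0; it changed no other call of a member than those of Pdia3, Ddit3, Hsp90b1, P4hb and Ppp1r15a given above. With the groups of a comparison alone, 1 member was lower in tumors, and 1849 genes were called in spleens in place of 999. With the first library of each pair alone, 1 member was lower in tumors and 0 in spleens. Leaving out 1 sample at a time gave 4265 to 4871 genes called between tumor gates (members 13 to 16 higher, 1 to 4 lower), 641 to 1191 between spleen gates (3 to 5 higher, 0 to 1 lower), 7302 to 8139 between tissues in OX40plus cells (22 and 4) and 6455 to 7646 in OX40minus cells (20 to 21 and 4), and 766 to 1628 for the interaction (3 to 6 positive, 0 to 1 negative). The spleen count fell most without spleen OX40minus mouse 2 (649) or spleen OX40plus mouse 1 (641), and so did the interaction (825 and 766). The cause of these changes was not tested. Spleen groups of 3 mice limit what the spleen comparison and the interaction can show.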
